A study of Homo sapiens with 9 samples.

Results

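Histone genes were followed in U-373MG, an established human glioblastoma and astrocytoma cell line, after exposure to either of 2 peptides. The members were all gene symbols that begin with HIST1H, HIST2H, HIST3H, HIST4H, H1F, H2AF or H3F and hold no hyphen. This gave 90 of the 24462 symbols counted: 73 replicative cluster genes (the HIST symbols) and 17 variant genes (the H1F, H2AF and H3F symbols). Classes were set by symbol alone. They include symbols without an annotated coding end: HIST1H2APS1, HIST2H2BA and HIST2H2BC among the replicative ones, and the pseudogene H3F3AP4 among the variants. Cells were untreated (control, 3 libraries), or exposed to 200 nM NnK-1 for 48 h (3 libraries), or exposed to 200 nM CBRV1-10493 for 48 h (3 libraries). Both peptides are synthetic, derived from jellyfish sequences and described as ShK-like. The same 3 control libraries served in both comparisons with control, and the sources used here give no time in culture for these controls. The labels name biological replicates but no separate cultures, so a p-value reflects only how these samples vary among themselves, which may be technical variation. The comparisons asked which histone transcripts differ between exposed and untreated cells, and between the peptides at the same dose and time.

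Histones package DNA into nucleosomes, each a core of H2A, H2B, H3 and H4 with linker histone H1 on the DNA between cores. Replicative histone genes lie in clusters, are transcribed mainly while DNA is copied, and most of their messenger RNAs end in a stem-loop bound by the protein SLBP in place of a poly(A) tail. Variant genes stand apart from these clusters, are transcribed through the cell cycle, and give ordinary polyadenylated messages. The libraries were made with QuantSeq, which primes on A stretches near the 3′ end, so a message without a tail enters the counts mainly when it also exists in a tailed form or carries an A-rich stretch. Levels are given as CPM, a count divided by the library total of all genes and scaled to counts per 1000000, and were not divided by length, and a difference in CPM between 2 genes is a difference in reads and not in message copies.

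The 3′ stem-loop that is known for replicative messages is shown for 5 members that encode H2A, H2B or H4 and for the variant that carries it, from the GENCODE release 29 transcripts on GRCh38, with 5 bases on either side. Capitals mark the 16 bases that match a pattern for the paired stem and its loop (GG, any 2 bases, CTT, any base, T, any base, AG, any 2 bases and CC), searched on the transcript strand only. The pattern was found in 33 of the 73 replicative members, in 1 of the 17 variants and in 185 of all 58721 annotated genes (0.315%), and 34 of these 185 genes were histone members. The matches in these 34 members came in 7 distinct sequences, which share the letters GGCNCTTNTNAGNGCC. HIST2H2AA3 (chr1:149842218-149842243, minus strand) and HIST2H2AA4 (chr1:149851569-149851594, plus strand) hold the same letters, HIST1H2BH lies at chr6:26252050-26252075 (plus strand), HIST1H2BD at chr6:26158582-26158607 (plus strand) and HIST2H4A at chr1:149833027-149833052 (plus strand). The variant is H2AFX, at chr11:119094893-119094918 (minus strand), whose 2 annotated transcripts run 821 and 1044 bases past the match.
HIST2H2AA3: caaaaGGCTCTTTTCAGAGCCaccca
HIST2H2AA4: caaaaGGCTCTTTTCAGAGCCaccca
HIST1H2BH: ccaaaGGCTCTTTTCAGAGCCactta
HIST1H2BD: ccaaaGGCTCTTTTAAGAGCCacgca
HIST2H4A: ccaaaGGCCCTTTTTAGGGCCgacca
H2AFX: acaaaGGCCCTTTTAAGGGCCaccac

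HIST1H4C, the histone H4 gene with most of the replicative reads, had no match in its annotated transcript. That transcript, 435 bases long, ended instead in the A-rich stretch below (chr6:26104281-26104310, plus strand), in which capitals mark the runs of A. It held 21 A among these 30 bases.
HIST1H4C: tgagaacttcAAAAAAcAAAAAcAAAAAAA

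Total counts ranged from 11203094 to 13491075 per library, and histone members took 0.459% to 0.542% of them. On principal components over all genes tested, NnK-1 replicate 2 and CBRV1-10493 replicate 1 lay apart from the other libraries. They did so on different components, NnK-1 replicate 2 on component 1 (52.1) and CBRV1-10493 replicate 1 on component 2 (-44.9). Summed markers of astroglial cells stood between 7172 and 10918 CPM, led by VIM, CD44 and NES. GFAP had group means of 23.4, 23.8 and 22.9 CPM for control, NnK-1 and CBRV1-10493. SOX9, S100B, SLC1A3, FABP7 and TNC lay between GFAP and the leading genes. In no library did AQP4 exceed 0.0825 CPM or CHI3L1 exceed 0.296 CPM, and the astrocyte gene ALDH1L1 had no read. Markers of endothelial cells summed to between 0.893 and 3.79 CPM with TEK and CLDN5 at 0. Neuronal markers summed to between 126 and 200.1 CPM, mostly ENO2, and oligodendrocyte markers to between 44.9 and 54.6 CPM with SOX10 and OLIG2 at 0. In a bulk culture, fewer cells in a state and less RNA per cell cannot be told apart.

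Of the 90 members, 74 had at least 1 read, 33 passed the filter on low counts and were tested (21 replicative, 12 variant), 41 had reads but were not tested, and 16 had no read. A count of 0 over all 9 libraries allows a level of up to 0.0271 CPM, counting error only. The members without a read were 13 replicative symbols and 3 variants, H1FNT, H1FOO and H2AFB3. Among the replicative ones were HIST1H1A, the testis gene HIST1H1T, HIST1H2APS1, HIST3H3 and 6 of the 15 H4 symbols. Some members without a read have close copies. HIST1H4J, HIST1H4K, HIST1H2AJ and H2AFB3 share 79.6% to 100% of their stretches of 75 bases with other genes. How reads were placed among such copies was not tested, so for these members the bound covers counted reads only. The germ-line variants H2AFB1 and H2AFB2 had 2 counts each. Only 17 members reached a mean of 5 CPM, 8 of them replicative and 9 variant.

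Variant genes held most of the histone reads in every library, and the 3 groups overlapped in the sum of either class. The summed variant level was 3514, 3358 and 3550 CPM in control cells, 3758, 3328 and 3415 CPM with NnK-1, and 3398, 3281 and 3388 CPM with CBRV1-10493. The summed replicative level was 1403, 1486 and 1324 CPM in control cells, 1397, 1744 and 1476 CPM with NnK-1, and 2024, 1428 and 1202 CPM with CBRV1-10493. The widest spread was that of the replicative sum with CBRV1-10493, where replicate 1 stood highest of all 9 libraries and replicate 3 lowest. As log2 ratios of group means, the replicative sum was 0.13 for NnK-1 against control and 0.14 for CBRV1-10493 against control. Without CBRV1-10493 replicate 1 the latter was -0.09, and without NnK-1 replicate 2 the former was 0.03. The variant sum gave 0.01 and -0.05.

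**Figure D1:**
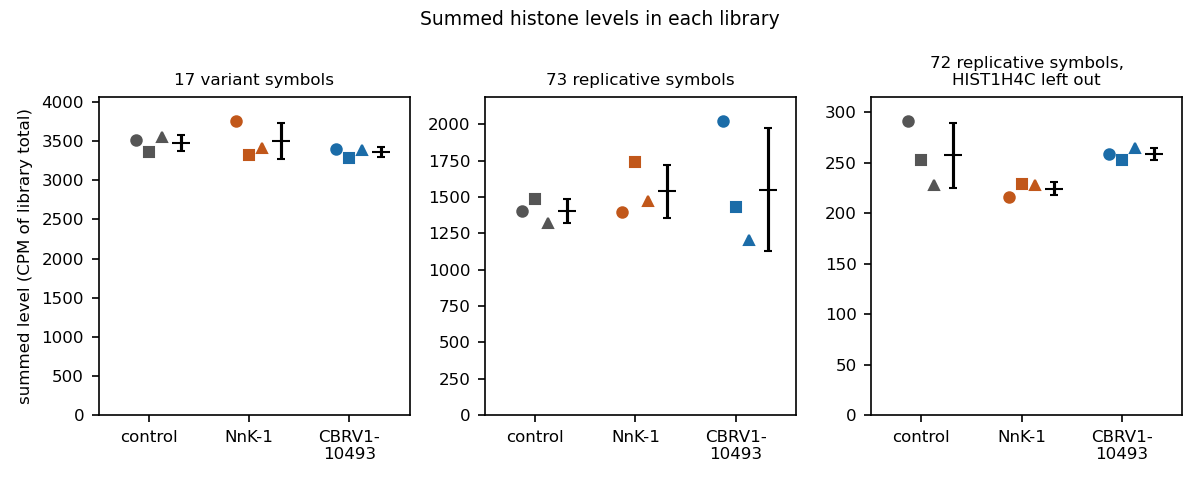
Summed level in CPM (vertical axis, from 0) of the 17 variant symbols, the 73 replicative symbols and the 72 replicative symbols other than HIST1H4C; each point is 1 library (circle, square and triangle for replicates 1, 2 and 3), and the bar beside it is the mean with its SD over 3 libraries. The replicative sum runs from 1202 to 2024 CPM among the CBRV1-10493 libraries, and without HIST1H4C their mean is 259 CPM with an SD of 6.07.

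The replicative share of histone reads had a mean ± SD over 3 libraries of 28.8% ± 1.77 in the control group, 30.6% ± 3.66 in the NnK-1 group and 31.3% ± 5.63 in the CBRV1-10493 group. It was highest in the libraries that lay apart: 37.3% in CBRV1-10493 replicate 1 (95% Wilson binomial interval 37.0 to 37.7) and 34.4% in NnK-1 replicate 2. Intervals of this kind cover counting error only. The other 7 libraries ranged from 26.2% in CBRV1-10493 replicate 3 to 30.7% in control replicate 2. Whether what sets either of these 2 libraries apart bears on the share was not tested.

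A single H4 gene held most of the replicative sum. HIST1H4C made up 78.0% to 87.2% of the replicative reads in a library. Without it the replicative share ran from 5.45% to 7.66% of histone reads. The replicative sum without HIST1H4C was 257 ± 32.1 CPM for control, 224 ± 6.83 CPM for NnK-1 and 259 ± 6.07 CPM for CBRV1-10493. It was 291, 252 and 228 CPM in the control libraries and 216, 229 and 228 CPM in the NnK-1 libraries, so that the groups met, and the log2 ratio for NnK-1 turned from 0.13 to -0.20.

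HIST1H4C encodes histone H4, the partner of H3 in the nucleosome core. Its level was 1112, 1233 and 1097 CPM in control cells, 1181, 1516 and 1248 CPM with NnK-1, and 1765, 1176 and 937 CPM with CBRV1-10493. The highest levels came from CBRV1-10493 replicate 1 and NnK-1 replicate 2, the lowest from CBRV1-10493 replicate 3, and all groups overlapped. The fitted log2 fold change was 0.23 for NnK-1 (95% interval -0.10 to 0.55) and 0.19 for CBRV1-10493 (-0.14 to 0.52), and neither passed the test. Without CBRV1-10493 replicate 1 the second value was -0.11, and without NnK-1 replicate 2 the first was 0.09.

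Within its class HIST1H4C also stood out in sequence. Its annotated transcript had up to 18 A in 20 consecutive bases, and that window ended at the transcript end. The median over the 73 replicative members was 11, and 5 members reached 15. HIST1H2BG reached more, 20 A, and had a mean level of 0.224 CPM. Where that window lies in its transcript, which runs 1059 bases past the stem-loop match, was not examined. Whether the count of A bears on the number of reads was not tested. The annotation limits such a comparison: in 34 of the 73 replicative members the annotated 3′ UTR was under 10 bases long, as in HIST1H1C, HIST1H1D and HIST1H2BK, whose transcripts stop at the coding end. Where at least 60 UTR bases were annotated, 31 of 32 members matched the stem-loop pattern. HIST1H4C, with 51 annotated UTR bases, fell just under that cut. HIST1H1T (51 bases) and HIST1H1E (57 bases), also without a match, did so too.

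**Figure D2:**
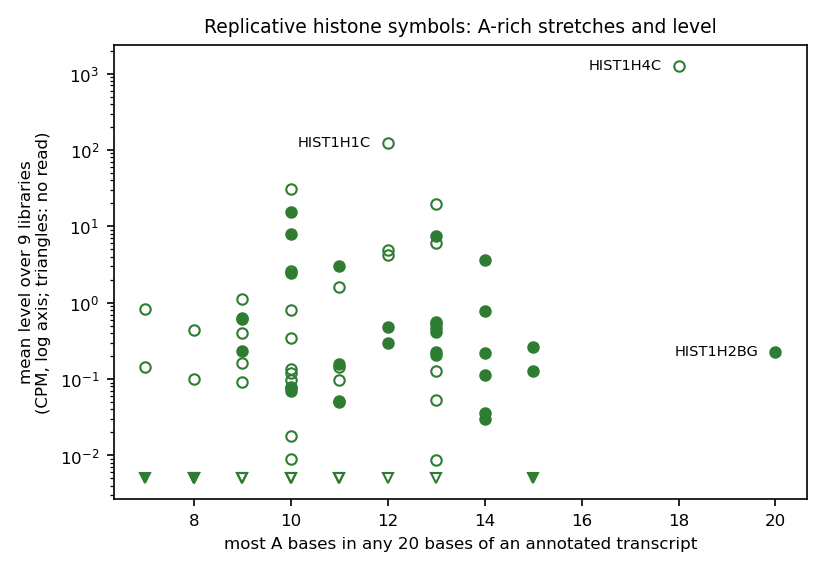
Mean level over 9 libraries (vertical axis, CPM, log scale) against the most A bases found in any 20 bases of an annotated transcript, for the 73 replicative symbols; filled points match the stem-loop pattern, open points do not, and triangles at the foot mark symbols without a read. HIST1H4C stands at 18 A with the highest level, HIST1H2BG at 20 A with 0.224 CPM.

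Members whose annotated transcript runs well past the stem-loop had no higher median level than those that end near it. The 23 members with at least 200 bases beyond the match, 18 of which had a poly(A) signal (AATAAA or ATTAAA) within 40 bases of an end, had a median of 0.225 CPM, with HIST1H2BH highest at 7.54 CPM. The 10 members with fewer bases beyond it had a median of 0.510 CPM, with HIST2H2AA4 highest at 15.6 CPM. The 40 members without an annotated match had a median of 0.123 CPM and included HIST1H4C. These are descriptions over genes, which are not replicates, and the difference between them was not tested.

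Among 13676 genes tested with edgeR's quasi-likelihood test, no gene and no histone member passed an adjusted p of 0.05 in any of the 3 comparisons (0% of all genes in each). The smallest adjusted p of a member was 0.577 with NnK-1, shared by H1FX and H2AFZ, 1.00 with CBRV1-10493 and 0.994 between the peptides. DESeq2 on all genes with a read called 0 members as well. With NnK-1, 4 of 33 members had an unadjusted p under 0.05, against 7.33% of all genes, and 5 of 33 had groups that did not overlap, against 13.0% of all genes. With CBRV1-10493 the same counts were 0 of 33 against 2.89%, and 0 of 33 against 8.88%. Between the peptides they were 1 of 33 against 4.31%, and 4 of 33 against 8.88%.

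In the comparison of NnK-1 with control no member passed, and the share of members whose groups did not overlap was near that of all genes. The members with an unadjusted p under 0.05 were H1FX, H2AFV and HIST1H1D on the lower side and H2AFZ on the higher side. These same 4 members and HIST1H2BC had groups that did not overlap. Over all tested members 15 fold changes lay above 0 and 18 below, with a median of -0.12 beside 0.00 for all genes. The median was -0.15 for the 21 replicative members and -0.00 for the 12 variants.

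Linker histones bind the DNA where it enters and leaves the nucleosome. H1FX, a variant linker histone, stood at 139, 146 and 145 CPM in control cells, 115, 102 and 109 CPM with NnK-1, and 97.0, 140 and 134 CPM with CBRV1-10493. All NnK-1 libraries lay below all control libraries, while CBRV1-10493 replicate 1 was the lowest of all 9 and the other CBRV1-10493 libraries lay at or near the control range. The log2 fold change was -0.37 with NnK-1 (-0.61 to -0.12, adjusted p = 0.577). With CBRV1-10493 it was -0.20 (-0.44 to 0.05), and -0.06 without the 2 libraries that lay apart. An antisense gene, H1FX-AS1, overlaps H1FX on the opposite strand, and for the strand setting of the counts the sources used here give nothing. H1FX-AS1 held 0.412 to 3.21 CPM, far below H1FX.

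HIST1H1D, a replicative linker histone, stood at 21.3, 27.8 and 19.1 CPM in control cells, 17.4, 15.6 and 16.5 CPM with NnK-1, and 15.5, 24.1 and 21.1 CPM with CBRV1-10493. Again the NnK-1 libraries lay below every control library and CBRV1-10493 replicate 1 was lowest, for a log2 fold change of -0.44 with NnK-1 (-0.84 to -0.03) and -0.15 with CBRV1-10493. Without control replicate 2, which stood highest, the NnK-1 value was -0.27. HIST1H1C, the linker histone gene with the most reads among the replicative ones, stood at 162, 126 and 106 CPM in control cells, 103, 111 and 114 CPM with NnK-1, and 128, 126 and 144 CPM with CBRV1-10493. The NnK-1 libraries overlapped the control libraries and lay below all CBRV1-10493 libraries. The log2 fold change was -0.23 against control and 0.26 for CBRV1-10493 against NnK-1 (-0.00 to 0.52). Without control replicate 1, which stood highest, the first of these was -0.06.

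The remaining linker genes had wider intervals. H1F0, a variant of resting cells, stood at 17.6, 8.50 and 9.93 CPM in control cells, 18.8, 6.25 and 7.01 CPM with NnK-1, and 9.26, 9.42 and 19.1 CPM with CBRV1-10493. One library in each group was well above the other two, and the groups overlapped. HIST1H1B stood at 2.15 to 5.44 CPM in control cells and 4.47 to 5.78 CPM with CBRV1-10493, a log2 fold change of 0.65 (-0.14 to 1.45) that was 1.14 without control replicate 1 and 0.41 without control replicate 3. HIST1H1E had group means of 5.34, 4.63 and 4.76 CPM for control, NnK-1 and CBRV1-10493. All linker members together summed to 352, 318 and 284 CPM in control cells, 265, 242 and 256 CPM with NnK-1 and 261, 308 and 328 CPM with CBRV1-10493. The NnK-1 sums lay below all control sums and CBRV1-10493 replicate 1 lay among them. This sum was formed after its members' values were seen and carries no test.

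**Figure D3:**
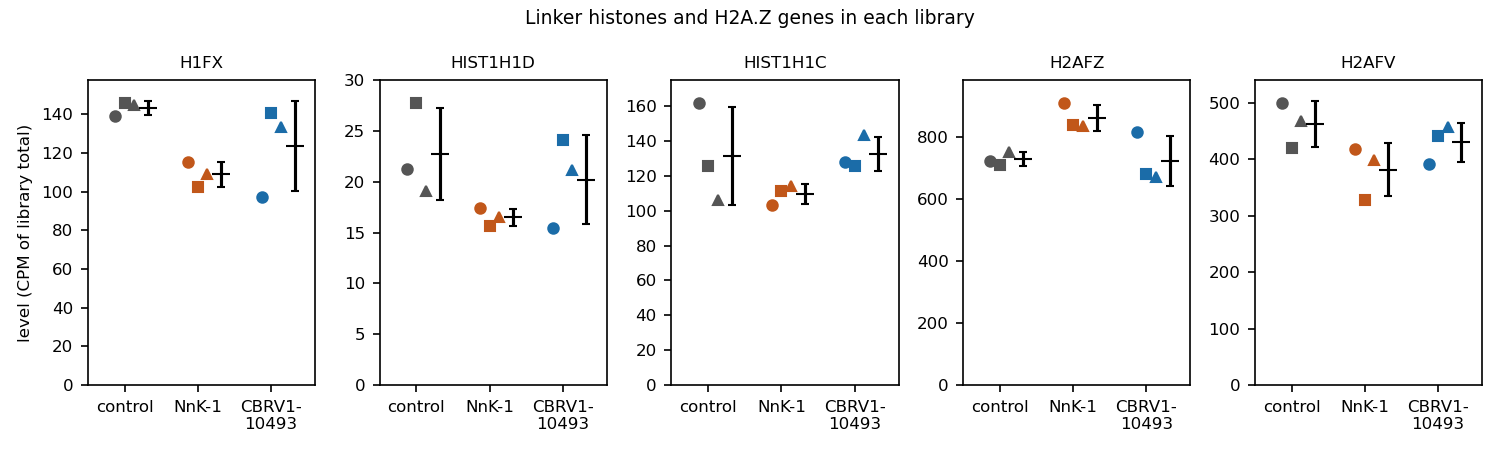
Level in CPM (vertical axes, from 0) of H1FX, HIST1H1D, HIST1H1C, H2AFZ and H2AFV in each library (circle, square and triangle for replicates 1, 2 and 3), with the mean and SD over 3 libraries at the side. For H1FX, HIST1H1D, H2AFZ and H2AFV the NnK-1 libraries lie on 1 side of all control libraries, and the circle of CBRV1-10493 replicate 1 lies on that same side.

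H2A.Z is an H2A variant placed at promoters and enhancers by the SRCAP and EP400 remodelling complexes, and it comes from a pair of genes. H2AFZ stood at 722, 708 and 752 CPM in control cells, 910, 838 and 835 CPM with NnK-1, and 816, 680 and 671 CPM with CBRV1-10493. Every NnK-1 library was above every control and every CBRV1-10493 library. The log2 fold change was 0.27 with NnK-1 (0.08 to 0.46, adjusted p = 0.577), 0.00 with CBRV1-10493 (-0.18 to 0.19), and -0.26 for CBRV1-10493 against NnK-1 (-0.45 to -0.08, adjusted p = 0.994). The NnK-1 value stayed between 0.24 and 0.30 under the 18 alternatives, none of which brought it past the test. The value for CBRV1-10493 was -0.10 without its replicate 1.

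H2AFV, the other H2A.Z gene, lay on the opposite side. It stood at 501, 421 and 468 CPM in control cells, 419, 328 and 398 CPM with NnK-1, and 392, 442 and 457 CPM with CBRV1-10493. The NnK-1 libraries were below all control libraries, narrowly so for NnK-1 replicate 1, and NnK-1 replicate 2 was lowest. The log2 fold change was -0.25 with NnK-1 (-0.46 to -0.05), -0.17 without the 2 libraries that lay apart, and -0.09 with CBRV1-10493.

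The ratio of H2AFZ to H2AFV set the NnK-1 and control libraries further apart than the level of either gene. It was 1.44, 1.68 and 1.61 in control cells, 2.17, 2.55 and 2.10 with NnK-1, and 2.08, 1.54 and 1.47 with CBRV1-10493. The ratio in CBRV1-10493 replicate 1 was close to the NnK-1 libraries, and the other CBRV1-10493 libraries lay within the control range. The sum of both genes was 1191 ± 53.4 CPM for control, 1243 ± 81.4 CPM for NnK-1 and 1152 ± 47.8 CPM for CBRV1-10493, with overlapping groups. The ratio was chosen after the values of both genes were seen, and it was not tested. AC097460.1 overlaps H2AFZ on the opposite strand.

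The H3.3 genes, which supply H3 outside DNA replication through the chaperones HIRA and DAXX, varied little between libraries. H3F3B, the member with the most reads, stood at 1301, 1274 and 1350 CPM in control cells, 1431, 1219 and 1258 CPM with NnK-1, and 1259, 1202 and 1296 CPM with CBRV1-10493. H3F3A stood at 420, 413 and 435 CPM, then 426, 429 and 430 CPM, then 417, 419 and 417 CPM in the same order of groups. The groups overlapped for each peptide against control, and for H3F3A the CBRV1-10493 libraries lay just below the NnK-1 libraries. Log2 fold changes against control were 0.02 and -0.05 for H3F3B with NnK-1 and CBRV1-10493, and 0.05 and -0.00 for H3F3A. All 4 intervals lay between -0.21 and 0.22.

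H3F3C, a retrotransposed primate copy of the H3.3 gene, ranged from 67.0 to 78.5 CPM in control cells, 67.2 to 70.2 CPM with NnK-1 and 69.6 to 78.4 CPM with CBRV1-10493. It shares 8.95% of its 75-base stretches with H3F3B, counted as exact matches over the whole annotated transcript. How reads were placed between H3F3C and H3F3B was not tested. The pseudogene H3F3AP4, which shares all of its 75-base stretches with H3F3A and related copies, held a mean of 1.56 to 2.36 CPM per group, and its reads are uncertain.

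Of the other H2A variants, H2AFX marks DNA breaks when phosphorylated, and H2AFY and H2AFY2 encode macroH2A. H2AFX stood at 120, 104 and 105 CPM in control cells, 131, 105 and 92.6 CPM with NnK-1, and 94.95, 105 and 108 CPM with CBRV1-10493, with overlapping groups and log2 fold changes of 0.02 and -0.08. H2AFY stood at 213, 198 and 211 CPM, then 228, 222 and 211 CPM, then 226, 208 and 210 CPM, with log2 fold changes of 0.11 and 0.07, and it overlaps C5orf66 on the opposite strand. H2AFY2 was scarce, between 0.715 and 4.31 CPM. Its highest value, control replicate 1, set the sign for CBRV1-10493: the log2 fold change was -0.60 with that library and 0.62 without it. H2AFJ stood between 2.96 and 6.07 CPM, and its groups overlapped.

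**Figure D4:**
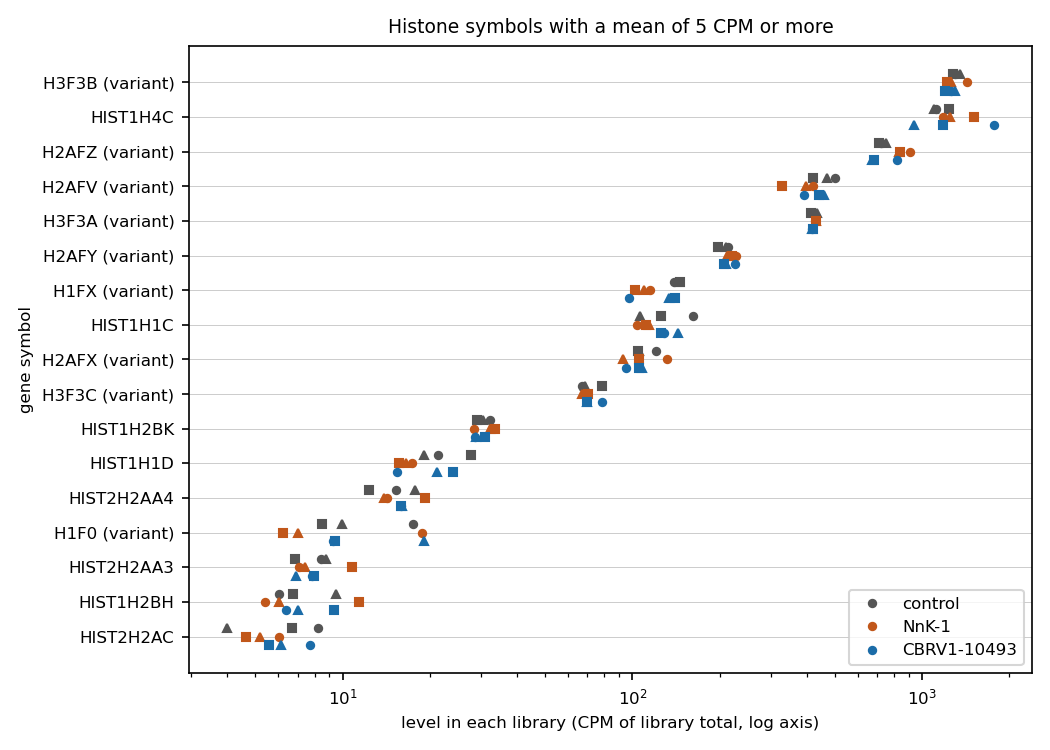
Level in each library (horizontal axis, CPM, log scale) of the 17 symbols with a mean of at least 5 CPM, ordered by mean; colour gives the group, and circle, square and triangle give replicates 1, 2 and 3. HIST1H4C is the only replicative symbol among the 5 highest, and its libraries spread from 937 to 1765 CPM while those of H3F3A stay between 413 and 435 CPM.

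The replicative core genes other than HIST1H4C had few reads. HIST1H2BK led them, with group means of 30.6, 31.4 and 29.5 CPM for control, NnK-1 and CBRV1-10493. Its 9 libraries ran from 28.4 to 33.5 CPM and its groups overlapped, but 50.5% of its 75-base stretches occur in other genes, mainly H2BFS. HIST1H2BH stood at 7.42, 7.62 and 7.57 CPM by group mean and HIST2H2AC at 6.29, 5.30 and 6.46 CPM. Among the 5 H2B members tested, fold changes with NnK-1 ran from -1.51 to 0.07. The lowest was HIST1H2BC, whose levels were 1.06, 1.51 and 1.33 CPM in control cells, 0.797, 0.446 and 0.0825 CPM with NnK-1, and 0.165, 1.56 and 0.165 CPM with CBRV1-10493. The interval of its NnK-1 value reached from -3.42 to 0.40.

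HIST2H2AA3 and HIST2H2AA4 are copies of 1 H2A gene and share the stem-loop printed above. All 75-base stretches of HIST2H2AA3 occur in the other copy, and 96.9% of those of HIST2H2AA4 occur in HIST2H2AA3. HIST2H2AA4 nevertheless held 1.78 to 2.32 times the counts of HIST2H2AA3 in every library (1726 against 884 counts in all), so the split between them is uncertain. Their summed level was 23.1, 24.2 and 23.6 CPM in the same order of groups. HIST2H4A and HIST2H4B (46 and 23 counts) and HIST2H3C and HIST2H3A (18 and 6 counts) are copies of the same kind. HIST1H2AB and HIST1H2AE share no stretch of this length in the annotation used, and HIST1H2AB is annotated to its coding end only. They held 290 and 274 counts, in a ratio of 0.778 to 1.47.

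Between the peptides, the members with groups that did not overlap were HIST1H1C and HIST1H2AB, higher with CBRV1-10493, and H2AFZ and H3F3A, higher with NnK-1. HIST1H2AB, an H2A gene, stood at 2.23, 1.16 and 2.06 CPM with NnK-1 and 4.05, 3.11 and 2.81 CPM with CBRV1-10493, a log2 fold change of 0.86 (-0.11 to 1.83). In control cells it stood at 1.71, 3.34 and 2.96 CPM, across both. Of the 21 replicative members 16 lay above 0 in this comparison, with a median of 0.28. Of the 12 variants 5 lay above 0, with a median of -0.05, and of all 13676 genes 6874, with a median of 0.00. Only 8 of the 21 replicative members had a mean of at least 5 CPM. The 33 fold changes are those of 1 pair of compounds at matched dose and time, and none passed the test adjusted over all genes.

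Against control, 6943 of all 13676 genes lay above 0 with CBRV1-10493 (median 0.00). The same held for 15 of 21 replicative members (median 0.19) and 5 of 12 variants (median -0.03). The largest positive value, 1.31 for HIST1H2AG, rested on CBRV1-10493 replicate 1. That H2A gene stood at 0.325, 0.953 and 0 CPM in control cells and 2.32, 0 and 0.825 CPM with CBRV1-10493, and the value was -0.03 without that library. HIST1H3C, an H3 gene, stood highest in the same library at 3.47 CPM, while the other CBRV1-10493 libraries gave 0.409 and 0.743 CPM. Against NnK-1 its log2 fold change was 1.38, and -0.04 without CBRV1-10493 replicate 1. HIST1H2BD had 0.42 (-0.43 to 1.27) against control, from a mean of 3.38 CPM in control cells to 4.48 CPM.

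**Figure D5:**
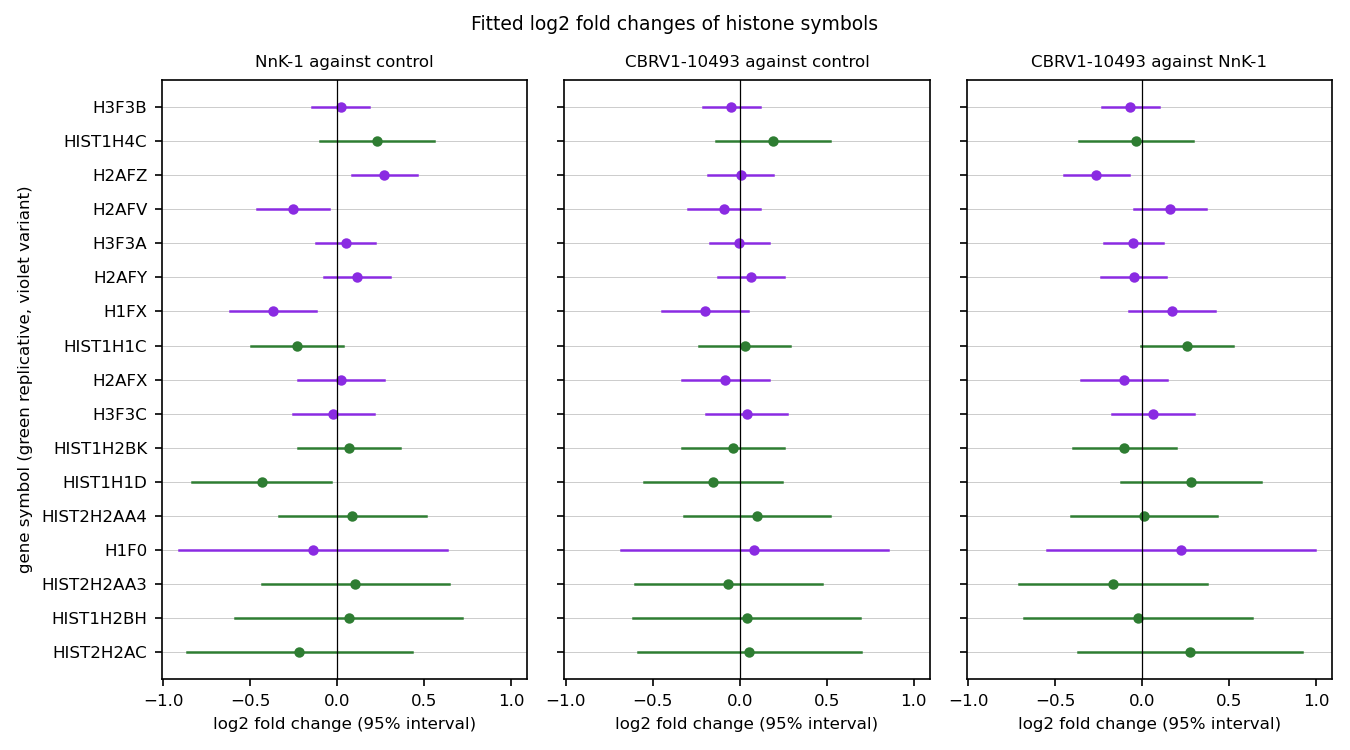
Fitted log2 fold changes (points) with 95% intervals (lines) in the 3 comparisons for the 17 symbols with a mean of at least 5 CPM; green is replicative, violet variant, and the vertical line marks 0. In the comparison of NnK-1 with control the intervals of H2AFZ, H2AFV, H1FX and HIST1H1D do not reach 0 before adjustment; between the peptides that holds for H2AFZ.

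The median precision differed between the classes, and so did the level. The median interval reached 0.86 to either side for replicative members and 0.24 for variants in the NnK-1 comparison, beside 0.39 for all genes. The median coefficient of variation within groups was 29.6% over the 21 tested replicative members and 9.39% over the 12 variants. Of these, 8 replicative members and 9 variants had a mean of at least 5 CPM. The coefficient was 6.17% for HIST1H2BK (30.5 CPM), 11.3% for HIST1H1C (125 CPM) and 17.7% for HIST1H4C (1252 CPM). Among variants it was 53.4% for H2AFY2 (1.69 CPM), 63.3% for H3F3AP4 (1.87 CPM) and 50.4% for H1F0 (11.8 CPM). Whether the spread goes with class or with level was not tested.

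Genes that make, process and place histone messages and proteins gave no call in any comparison. Of 25 tested genes of stem-loop processing (SLBP, the U7 particle and cleavage factors) 0 passed, with medians of -0.01 for NnK-1, -0.03 for CBRV1-10493 and 0.00 between them. SLBP, the stem-loop binding protein, stood at 72.6, 53.7 and 53.6 CPM in control cells, 73.1, 65.7 and 57.6 CPM with NnK-1, and 68.6, 55.7 and 61.2 CPM with CBRV1-10493, with overlapping groups. NPAT, the activator of replicative histone transcription, had group means of 28.6, 31.9 and 32.7 CPM. ERI1, an exonuclease that trims histone messages, had a log2 fold change of 0.36 with NnK-1 (0.05 to 0.68), and CPSF1, a cleavage factor subunit, -0.41 for CBRV1-10493 against NnK-1 (-0.70 to -0.12).

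Of 37 tested genes of histone deposition 0 passed, with medians of -0.05, -0.01 and -0.01 in the same order. ASF1A and ASF1B, chaperones that hand H3 and H4 to the deposition factors, had the lowest p-values on the lower side with NnK-1. ASF1A stood at 39.4, 36.8 and 35.0 CPM in control cells, 31.8, 23.2 and 29.5 CPM with NnK-1, and 31.9, 38.6 and 38.4 CPM with CBRV1-10493. ASF1B stood at 74.4, 72.3 and 74.9 CPM, then 66.1, 51.3 and 60.4 CPM, then 53.2, 69.5 and 77.1 CPM. For both genes the NnK-1 libraries lay below all control libraries, and CBRV1-10493 replicate 1 lay below all control libraries as well. The log2 fold changes with NnK-1 were -0.37 (-0.67 to -0.07) and -0.29 (-0.57 to -0.02).

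IPO4, an importer of H3 and H4, had 0.37 with NnK-1 and -0.60 for CBRV1-10493 against NnK-1 (-0.96 to -0.24). The H3.3 chaperone DAXX had group means of 46.3, 48.1 and 49.6 CPM and CENPA, the centromeric H3, 21.5, 23.8 and 24.8 CPM. HIRA was at 0.876, 0.806 and 0.714 CPM, with an interval from -1.93 to 1.76 around -0.09 with NnK-1.

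Cell cycle genes were followed because replicative histone messages follow DNA synthesis. Of 35 genes of S phase, SLBP among them, 0 passed, and the medians were 0.02, -0.06 and -0.01. PCNA, the replication clamp, stood at 129, 121 and 124 CPM in control cells, 154, 96.0 and 98.9 CPM with NnK-1, and 108, 97.9 and 126 CPM with CBRV1-10493, with overlapping groups. CLSPN, a replication checkpoint adaptor, had -0.31 with NnK-1 and -0.32 with CBRV1-10493, which share the control libraries. FEN1, MCM5 and MCM7 had 0.25, 0.28 and 0.26 with NnK-1. Of 24 genes of G2 and mitosis 0 passed. With CBRV1-10493 21 of 24 lay below 0 (median -0.08), beside 6733 of all 13676 genes. With NnK-1 11 of 24 lay below 0 (median 0.01), beside 6750 of all 13676 genes. For CBRV1-10493 against NnK-1 21 of 24 lay below 0 (median -0.09), beside 6802 of all 13676 genes. This count and that for CBRV1-10493 against control share the CBRV1-10493 libraries. Genes of a list are not replicates, and these counts were not tested. PTTG1 and KIF11 had -0.24 and -0.29 with CBRV1-10493, and CCNB1 -0.30 for CBRV1-10493 against NnK-1.

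MKI67, a marker of cycling cells, had group means of 286, 265 and 276 CPM and a log2 fold change of -0.08 with NnK-1. Of 10 tested genes of cell cycle exit 0 passed, with medians of 0.17, -0.02 and -0.02. CDKN1A, an inhibitor of cyclin-dependent kinases, had group means of 30.5, 34.9 and 32.5 CPM. These lists were read from the same fit over all genes, and whether their values bear on those of the histone genes was not tested.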

How the data were processed

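Gene expression was measured in 9 libraries. Per the labels, RNA was extracted with TRIzol and libraries were made with the QuantSeq kit; per the submitters' processing notes, Bowtie2, bedtools and build hg19 were used, and the sources used here do not give versions, annotation or strand setting. Each file deposited by the authors gives unnormalized read counts by symbol for 1 library. Rows of 1 symbol were summed (286 symbols, none of them a member). CPM is a count divided by its library total. Genes were kept by filterByExpr (minimum count 10, minimum total 15) and 13676 were fitted, all 9 libraries together, with TMM factors and the quasi-likelihood test of edgeR 4.0.16 in R 4.3.3, two-sided, with Benjamini-Hochberg adjustment over all genes and a threshold of 0.05. Summed levels and shares are descriptions.

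Members, lists and tests were chosen with earlier results of these data known. Members named had a mean of at least 5 CPM, or were among the 4 smallest p on either side of a comparison, or were core H1, H2A or H3 variants. Other members named, such as HIST1H1E, HIST1H2AE and HIST1H2BG, were chosen after their values were seen, to complete a family, a pair of copies or a count. From each other list up to 4 genes with the smallest p were named, together with SLBP, NPAT, ASF1A, ASF1B, HIRA, DAXX, CENPA, PCNA, MKI67 and CDKN1A. No 2 libraries of the same group agreed within sampling noise. Sequences come from GENCODE release 29 on GRCh38, in which all 90 members were found; the files hold no coordinates.

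Alternatives were DESeq2's size factors, library totals alone, no filter, a fit on the 6 libraries compared, at least 5 CPM in 3 libraries, the replicate number as a block, the largest row of a symbol, DESeq2 1.42.0 and each library left out in turn. Leaving out the 2 libraries that lay apart was added after seeing the data.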

Additional observations from a re-analysis of the deposited data

How the results depend on the processing

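No histone member passed the test in any of the 54 alternatives of the 3 comparisons (edgeR, and DESeq2, which had 4, 1 and 1 members at an unadjusted p under 0.05). Of 495 alternative values of named members 476 kept their sign. Without HIST1H4C the log2 ratio of the replicative sum for NnK-1 was -0.20 (0.13 with it). Without H3F3B the replicative share was 39.3%, 41.1% and 41.9% in control, NnK-1 and CBRV1-10493 libraries, and with H2AFX and H2AFJ among the replicative genes it was 31.1% in control libraries. The other 65 alternative summed levels and 17 shares moved by less than the spread between libraries, although leaving out single libraries took the replicative ratio of CBRV1-10493 from -0.09 to 0.30 against control and from -0.23 to 0.17 against NnK-1. The share ran from 28.3% to 33.8% with CBRV1-10493, from 28.6% to 32.3% with NnK-1 and from 27.9% to 29.6% in control libraries.

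Signs that changed belonged to values near 0 or resting on 1 library. With library totals alone H3F3B was -0.0062 with NnK-1, and H2AFZ was -0.011 with CBRV1-10493. Leaving out each library gave ranges of -0.041 to 0.050 for H3F3B with NnK-1. With CBRV1-10493 they were -1.0004 to 0.62 for H2AFY2, -0.098 to 0.057 for H2AFZ, -0.027 to 2.67 for HIST1H2AG and -0.11 to 0.38 for HIST1H4C. Between the peptides they were -0.21 to 0.030 for H2AFX, -0.042 to 1.83 for HIST1H3C and -0.34 to 0.15 for HIST1H4C. Without the 2 libraries that lay apart H2AFZ was -0.098, HIST1H2AG -0.025 and HIST1H4C -0.11 with CBRV1-10493. The cause was not tested.

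With the replicate number as a block 0 members passed in each comparison, 4, 0 and 1 had an unadjusted p under 0.05 as without it, and H2AFZ was -0.00083 with CBRV1-10493. Libraries of different groups with the same number correlated between -0.06 and 0.13 in their deviations from the group means. Those with different numbers correlated between -0.09 and 0.10. The highest value, 0.13, was that of control replicate 1 with NnK-1 replicate 1. As the ranges largely overlapped, the numbers were not taken to pair the libraries. With no filter on low counts 74, 6 and 1 genes passed in the 3 comparisons, none a histone member.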
